A study of Mus musculus with 8 samples.

Results

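MHC class II molecules carry peptides taken up from outside the cell to the surface, where CD4 T cells read them. The α and β chains assemble in the endoplasmic reticulum with the invariant chain, which blocks the groove until proteases of the endosome cut it down. H2-M then releases the remaining fragment and helps exchange peptides, and H2-O holds H2-M back. Transcription of these genes depends on the coactivator CIITA, which is recruited by factors bound to the X and Y boxes of their promoters. B cells, dendritic cells and macrophages carry class II at high levels, while mouse T cells, unlike activated human T cells, are known for little of it.

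The genes described here are 9 members of this pathway, of 17097 genes represented on the array. They are the chains of the classical molecules (H2-Aa, H2-Ab1, H2-Eb1), the invariant chain gene Cd74, the chains of H2-M (H2-DMa, H2-DMb1) and H2-O (H2-Oa, H2-Ob), and Ciita. The set was selected on measured values: it was picked because H2-Ob was lower in the RaptorKO group while markers of B cells and myeloid cells were not. Differences between the genotypes in these genes are therefore given as a description, without a test. All 9 genes were found, with 17 probe sets (groups of probes that read 1 transcript), and 0 further probe sets list a member beside other genes. On at least 4 of the 8 arrays 14 probe sets, covering 8 of the genes, exceeded the 40th percentile of their array, which is the condition for a test; probe sets that did not are called dim.

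The study measured RNA from regulatory T cells, sorted as CD4+CD25+ from spleen and peripheral lymph nodes of mice on a C57Bl/6J background and not treated after the sort. WT stands for the 4 samples from wild-type mice. RaptorKO stands for the 4 samples from CD4(cre)Raptor(fl/fl) mice, in which Cre under the control of Cd4 deletes the floxed gene for Raptor (Rptor), the subunit that defines the kinase complex mTORC1. Such a Cre acts in the T cell lineage from the thymus on, so conventional T cells of these mice carry the deletion as well. Ages, and whether animals were pooled, are not given in the sources used here. Mice with the b haplotype of this background do not make the Eα chain, so the product of H2-Eb1 lacks its usual partner.

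Values are log2 intensities, and 1 unit is a factor of 2. The dimmer Rptor probe set read 5.89 to 6.14 in WT and 5.37 to 5.74 in RaptorKO, and the brighter one overlapped (6.75 to 7.03 and 6.47 to 6.95); where they lie relative to the deleted part is not known here. Markers of the labelled cell type were bright on every array, with Foxp3 between 10.79 and 11.04, Il2ra between 11.14 and 11.47, and Cd3e between 11.02 and 11.25. Replicates 1 and 2 of both genotypes had a female pattern of sex-linked transcripts (Xist 10.88 to 11.18) and replicates 3 and 4 a male one (Xist 5.04 to 5.62).

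Promoters are shown because class II genes are known to share the X and Y boxes. H2-Ob, which differed in the opposite direction to the classical genes, carries the core letters of both, and not every promoter listed does. Promoters of 6 of the 9 members were in the RefSeq table used (GRCm38.p6). Each line gives the 120 bases before the annotated start, 5′ to 3′ on the gene's strand, all on chromosome 17. Capitals mark GCAAC, the core of the X box, and GATTGG, the core of the Y box, on either strand.
H2-Ob, chr17:34238785-34238904, plus strand: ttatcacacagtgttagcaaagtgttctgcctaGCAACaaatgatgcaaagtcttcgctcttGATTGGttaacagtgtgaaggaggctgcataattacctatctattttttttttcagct
H2-Oa, chr17:34092259-34092378, plus strand: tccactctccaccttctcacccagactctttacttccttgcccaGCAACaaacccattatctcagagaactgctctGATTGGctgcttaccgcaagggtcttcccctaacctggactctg
H2-Aa, chr17:34287824-34287943, minus strand: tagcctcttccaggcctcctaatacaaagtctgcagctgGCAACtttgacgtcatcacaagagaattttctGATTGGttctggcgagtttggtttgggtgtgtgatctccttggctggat
H2-Eb1, chr17:34305747-34305866, plus strand: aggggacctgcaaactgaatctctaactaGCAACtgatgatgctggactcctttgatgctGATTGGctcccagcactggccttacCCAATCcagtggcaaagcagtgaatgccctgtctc
H2-DMb1, chr17:34153071-34153190, plus strand: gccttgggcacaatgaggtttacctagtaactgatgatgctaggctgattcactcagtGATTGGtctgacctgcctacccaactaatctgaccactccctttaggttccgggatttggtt

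In the 250 bases before the start, GCAAC occurred in 29.9% of the 32851 promoters of the table and GATTGG in 14.6%, counting both strands. GCAAC followed on the same strand by GATTGG, with 25 to 35 bases from the start of the former to the start of the latter, occurred in 0.177%. This distance was set after the promoters of the members had been seen. Among the 6 members with a promoter, 4 held such a pair: H2-Oa and H2-Aa with 32 bases, H2-Eb1 with 31 and H2-Ob with 29. In H2-Ob the pair began 87 bases before the start, against 76 in H2-Oa, 81 in H2-Aa and 91 in H2-Eb1. The promoter of H2-DMb1 held GATTGG and not GCAAC in these letters, and neither of the promoters listed for H2-DMa held the pair. A match of letters is a description of the sequence, and binding was not measured.

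H2-Ob, the β chain of H2-O, was lower in RaptorKO, and it was the member whose groups did not overlap. Its brighter probe set, 1440837_PM_at, read 7.42, 7.49, 7.46 and 7.58 in WT 1 to WT 4, and 6.67, 6.53, 6.05 and 6.68 in RaptorKO 1 to RaptorKO 4. All 4 RaptorKO arrays lay below all 4 WT arrays, and RaptorKO 3 was the lowest. The means were 7.49 ± 0.065 in WT and 6.48 ± 0.30 in RaptorKO (SD, n = 4 each), a difference of -1.01 (SE 0.14), or 2.01-fold.

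The other H2-Ob probe set, 1422201_PM_at, was dimmer and gave the same direction with a smaller size. It read 6.47, 6.09, 6.67 and 6.50 in WT 1 to WT 4, and 5.86, 5.92, 5.76 and 5.84 in RaptorKO 1 to RaptorKO 4. The groups did not overlap here either, with 6.43 ± 0.25 against 5.85 ± 0.066 (SD, n = 4), a difference of -0.59. Within replicates 1 and 2 the differences were -0.86 for the brighter and -0.39 for the dimmer probe set, and within replicates 3 and 4 they were -1.15 and -0.78. In bulk RNA, fewer cells with a transcript and less of it per cell cannot be told apart.

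H2-Oa, the α chain that pairs with H2-Ob, lay at nearly the same level in both groups. It read 6.71, 6.66, 6.78 and 6.57 in WT, and 6.63, 6.50, 6.56 and 6.89 in RaptorKO, in the order of the replicates. The groups overlapped over almost their whole ranges, and the difference was -0.035 (SE 0.11).

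**Figure D1:**
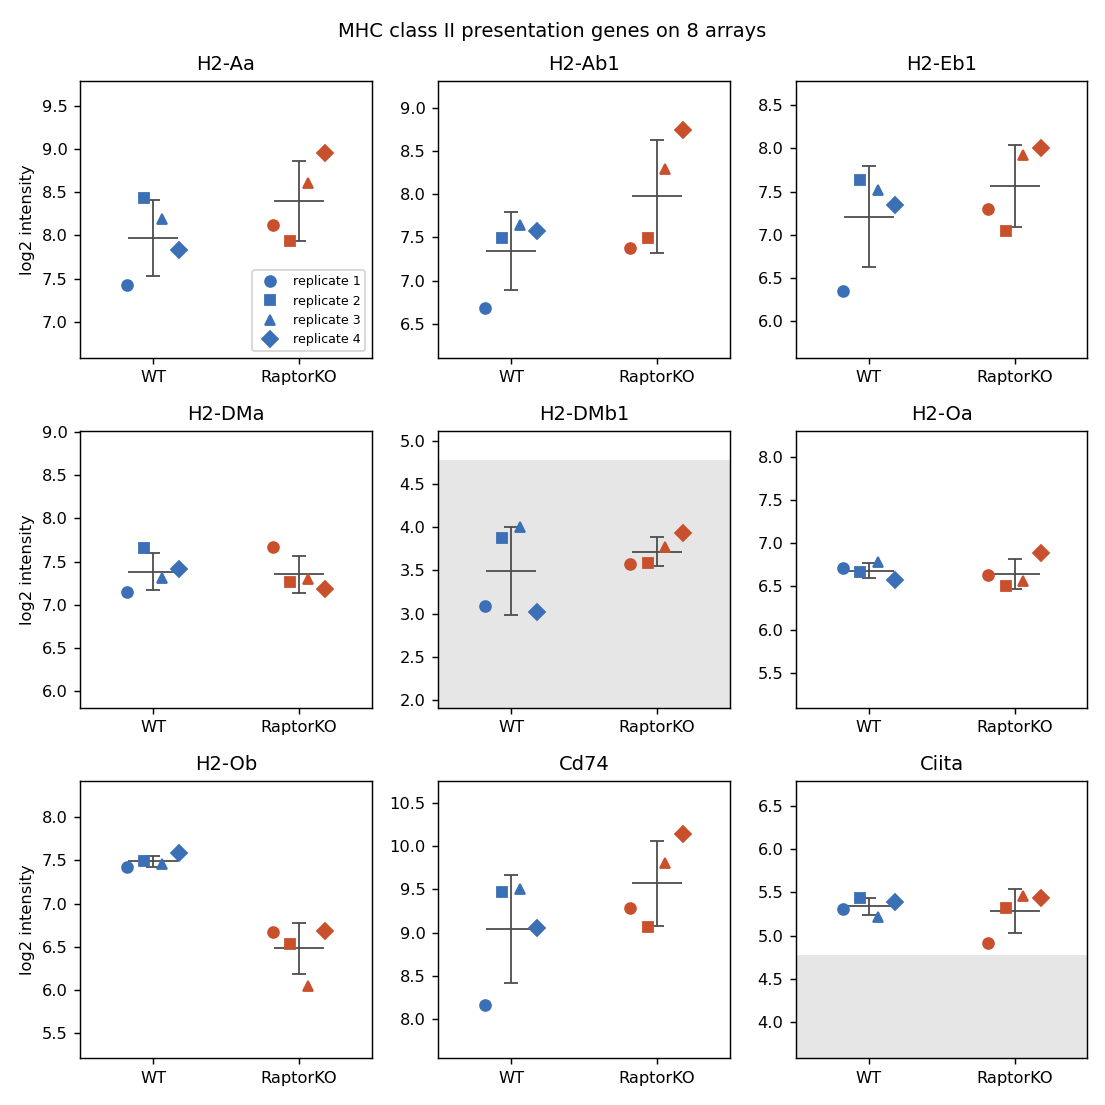
Log2 intensity of the brightest probe set of each of the 9 genes, by genotype, with all panels spanning the same number of log2 units. Markers are single arrays with the shape giving the replicate, dashes and bars are means ± SD (n = 4), and grey covers values under the mean 40th percentile of the arrays; H2-Ob is the gene whose groups are apart (7.42 to 7.58 against 6.05 to 6.68), and H2-DMb1 lies in the grey range.

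The chains of H2-M gave 1 measurable gene. H2-DMa read 7.15, 7.66, 7.31 and 7.42 in WT and 7.67, 7.27, 7.30 and 7.18 in RaptorKO, a difference of -0.029 (SE 0.14) with overlapping groups. Its dimmer probe set read 5.28 to 5.77 in WT and 5.57 to 6.04 in RaptorKO, a difference of 0.27, so the probe sets did not share a direction. H2-DMb1, the β chain, was dim on all 8 arrays, at 3.02 to 3.998 in WT and 3.57 to 3.93 in RaptorKO, and was not tested. The near-identical β chain gene H2-DMb2, which is no member, passed on all 8 arrays with 5.74 to 7.70 in WT and 6.65 to 7.44 in RaptorKO on its brighter probe set.

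The classical class II genes and Cd74 had higher means in RaptorKO, with groups that overlapped. Cd74, the invariant chain, read 8.16, 9.47, 9.50 and 9.05 in WT 1 to WT 4, and 9.28, 9.06, 9.80 and 10.14 in RaptorKO 1 to RaptorKO 4. WT 1 was the lowest array and RaptorKO 4 the highest, and the difference was 0.52 (SE 0.30). H2-Ab1, the β chain of the A molecule, read 6.68, 7.49, 7.64 and 7.58 in WT and 7.38, 7.49, 8.29 and 8.74 in RaptorKO, a difference of 0.63 (SE 0.30).

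The α chain H2-Aa read 7.42, 8.43, 8.19 and 7.83 in WT and 8.12, 7.93, 8.60 and 8.95 in RaptorKO, a difference of 0.43 (SE 0.24). The E chain H2-Eb1 read 6.35, 7.63, 7.52 and 7.35 in WT and 7.30, 7.04, 7.92 and 8.01 in RaptorKO, a difference of 0.35 (SE 0.28). For each of these genes WT 1 was the lowest of the 8 arrays and RaptorKO 4 the highest. Without WT 1 the differences were 0.23 for Cd74, 0.41 for H2-Ab1, 0.25 for H2-Aa and 0.065 for H2-Eb1. Without RaptorKO 4 they were 0.33 for Cd74, 0.37 for H2-Ab1, 0.25 for H2-Aa and 0.20 for H2-Eb1.

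Further probe sets of these genes moved the same way where they were not dim. The other H2-Aa probe set that passed differed by 0.77, and the other H2-Ab1 probe sets by 0.36 and 0.42. The dim H2-Aa probe set differed by -0.027. By the array maker's naming, probe sets ending in x_at or s_at can also read related transcripts, and the brightest probe sets of H2-Aa and H2-Ab1 are of these kinds.

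Ciita, which encodes the class II coactivator, was close to the filter. It read 5.31, 5.44, 5.22 and 5.39 in WT and 4.91, 5.32, 5.46 and 5.44 in RaptorKO, a difference of -0.054 (SE 0.13), and RaptorKO 1 was the lowest array. Another Ciita probe set differed by 0.25 with overlapping groups (4.68 to 4.99 and 4.97 to 5.30), and the remaining one was dim on all 8 arrays. The probe sets of Ciita thus disagreed in direction.

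**Figure D2:**
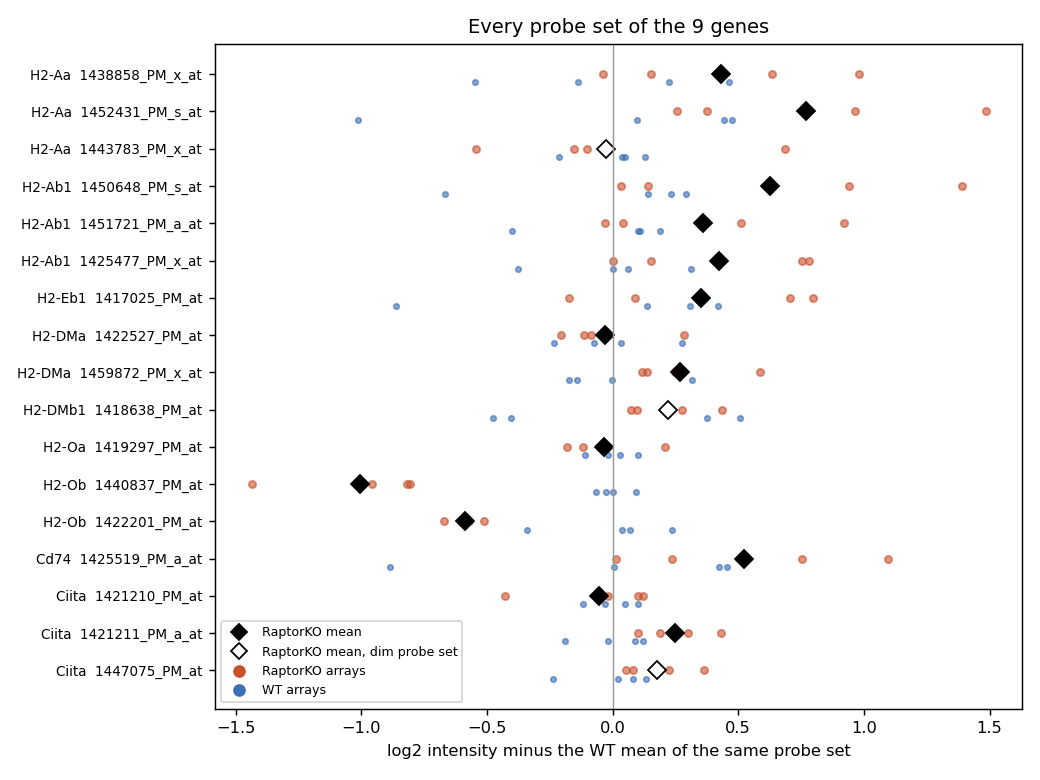
All 17 probe sets of the 9 genes, as log2 intensity minus the WT mean of the same probe set. Small points are single arrays (blue WT, red RaptorKO), diamonds are RaptorKO means and open diamonds are dim probe sets; the H2-Ob probe sets lie at -1.01 and -0.59, and the non-dim probe sets of H2-Aa, H2-Ab1, H2-Eb1 and Cd74 between 0.35 and 0.77.

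Of the 8 members tested, 4 had a positive and 4 a negative difference, with a median of 0.16, beside -0.0092 over all 11413 genes tested. In the limma fit over all genes 0 members were called higher and 1, H2-Ob, was called lower, at a Benjamini-Hochberg adjusted p under 0.05. Over all genes 1.96% were called, 1.14% as lower, and 8.82% had groups that did not overlap, as H2-Ob had. H2-Ob was not called within replicates 1 and 2 or within replicates 3 and 4, where 2 arrays a genotype remain. Since H2-Ob prompted the choice of the set, neither its call nor the loss of it is a test. Nothing is read from these counts. H2-Ob ranked 21 by size among all decreases.

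Transcripts from lists of antigen presenting cell markers were detected in the sorted samples, and the cells that carried them were not identified. The B cell list had 9 tested genes of 15, the first detected being Cd79a (6.09 to 7.67 in WT, 6.78 to 7.68 in RaptorKO), Cd79b and Pax5. Of the 9 genes 7 had a positive difference (median 0.14), beside 47.6% of all genes tested. Since the choice of the set used that B cell and myeloid markers were not lower in RaptorKO, the differences of both lists are given without a test. Ms4a1, Ebf1, Bank1, Blnk and Ighm were dim. The summed linear intensity of the 9 genes ranged from 411 to 869 in WT and from 512 to 720 in RaptorKO.

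The myeloid list had 14 tested genes of 18, and 13 had a positive difference (median 0.49), beside 47.6% of all genes tested. Lyz2 read 4.89 to 6.07 in WT and 6.04 to 6.38 in RaptorKO, Csf1r 5.31 to 5.95 and 5.39 to 6.03, and Cd68 5.64 to 6.45 and 6.19 to 6.68. The defining markers Adgre1, Itgam and Cd14 were dim. The summed intensity ranged from 661 to 1312 in WT and from 1045 to 1848 in RaptorKO. The dendritic cell list had 6 tested genes of 14 (median 0.094, 0 called, 0 at an unadjusted p under 0.05), the first detected being Zbtb46, Batf3 and Cd209a, while Itgax, Flt3 and Xcr1 were dim. Its summed intensity ranged from 336 to 440 in WT and from 394 to 480 in RaptorKO. Itgae, the brightest of the 6 (6.94 to 7.76 in WT, 7.54 to 7.87 in RaptorKO), weighs most in that sum. Cd209a exceeded the filter on 5 arrays.

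The mean of H2-Aa, H2-Ab1, H2-Eb1 and Cd74 was 7.16, 8.25, 8.21 and 7.95 on WT 1 to WT 4 and 8.02, 7.88, 8.65 and 8.96 on RaptorKO 1 to RaptorKO 4. The mean of the 14 myeloid markers followed a like order, lowest on WT 1 (5.41) and highest on RaptorKO 3 and 4 (6.84 and 6.86). Over the 8 arrays Pearson's r was 0.91 (exact permutation p = 0.00402, two-sided, adjusted p = 0.0362 over 9 relations). Values over both genotypes hold the contrast on which the set was chosen, so their p-values here are a description only. Spearman's rho was 0.74 (exact permutation p = 0.0458, adjusted p = 0.412). Without WT 1 and RaptorKO 4, the arrays farthest from the median of the markers, r was 0.69 over 6 arrays (exact permutation p = 0.151), and the relation no longer passed.

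With deviations from the genotype means, which leave out that contrast, r was 0.88 (permutation p = 0.00647, unadjusted). Permutations ran over all 8 arrays, although deviations are tied within a genotype and the replicate sets differ. This p-value is therefore a description only. With deviations from the means of genotype and replicate set r was 0.95. Each genotype and replicate set holds 2 arrays, whose deviations mirror each other, so this last value has few independent points. Replicates 1 and 2, and replicates 3 and 4, hold only 4 arrays each, too few for a correlation of their own. With the B cell mean r was 0.55 over the 8 arrays, 0.50 with genotype deviations and 0.97 with those of genotype and set. With the dendritic cell mean r was 0.52, 0.37 and 0.47 in the same order. Without WT 1 and RaptorKO 4 the dendritic cell r over both genotypes changed sign, to -0.74 over 6 arrays (exact permutation p = 0.0778). With the myeloid mean as a covariate the differences between genotypes were 0.084 for H2-Aa, 0.087 for H2-Ab1, -0.13 for H2-Eb1 and 0.030 for Cd74. With the B cell mean they were 0.30, 0.56, 0.23 and 0.38.

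For H2-Ob the choice of the set used both its own difference and those of the B cell and myeloid markers, so values over both genotypes are a description only. Its r was -0.54 with the myeloid mean and -0.12 with the B cell mean over the 8 arrays. With deviations from the genotype means, which leave out that contrast, r was -0.20 with the myeloid mean, 0.35 with the B cell mean and 0.78 with the dendritic cell mean. The last had a permutation p = 0.00972, unadjusted, with the limit given above for deviations. With deviations from the means of genotype and replicate set r was 0.14, 0.47 and 0.88 in the same order. Over both genotypes the dendritic cell r was -0.24 with the mean and 0.15 with the median of the markers. Without WT 1 and RaptorKO 4 it was 0.060 with the mean. Relations were computed between each of the class II mean, H2-Ob and H2-Oa and each of the marker means, 9 in all, and these are the family of the adjusted p-values.

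**Figure D3:**
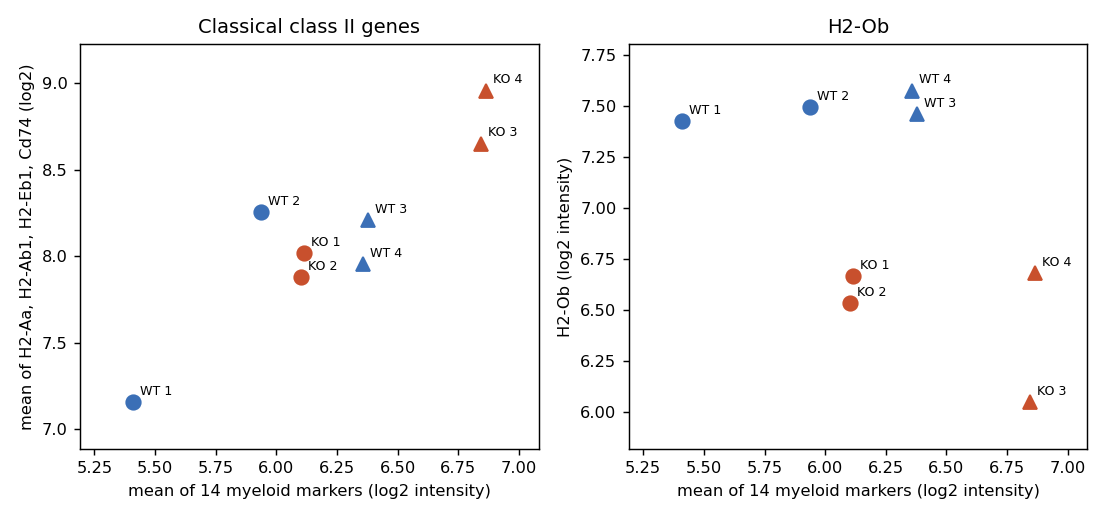
The mean of the classical class II genes (left) and H2-Ob (right) against the mean of 14 myeloid markers, in log2 intensity, 1 point for each array (blue WT, red RaptorKO, circles replicates 1 and 2, triangles replicates 3 and 4). The left panel runs from WT 1 at 7.16 to RaptorKO 4 at 8.96, and in the right panel the H2-Ob values of the genotypes do not overlap.

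How the members varied between arrays of the same genotype does not depend on the contrast used to choose them. Deviations from the genotype means correlated between H2-Aa, H2-Ab1, H2-Eb1 and Cd74 with r from 0.88 to 0.98 over 6 pairs of genes and 8 arrays. The correlations of H2-Ob with these genes lay between -0.12 and -0.030, and those of H2-Oa between 0.32 and 0.55. H2-Ob and H2-Oa correlated with r = 0.34. These values describe 8 arrays and include the differences between replicate sets given below. The labels do not say whether the arrays were processed together.

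By the same measure the tested genes most like H2-Aa were Dusp9 (r = 0.99), Foxs1 (0.97), Jag1, Cd74 and Ak5 (0.96 each). Those most like H2-Ob were Gpsm3 (r = 0.98), Zfp341 (0.97), Kif21b (0.97), Snrpa (0.97) and Gramd1b (0.96). Gpsm3 had a difference of -0.40 between genotypes (limma adjusted p = 0.188), while Snrpa had 0.0098 (limma adjusted p = 0.987). With 8 arrays and 11413 genes, high values of r arise in great number, and these names carry no test.

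Replicates 3 and 4 were compared with replicates 1 and 2 over both genotypes, a contrast that did not enter the choice of the genes. H2-Ab1 was 7.26 on average in replicates 1 and 2 and 8.06 in replicates 3 and 4, a difference of 0.80 (SE 0.19, limma adjusted p = 0.218). Cd74 differed by 0.63 (adjusted p = 0.527), H2-Eb1 by 0.62 (adjusted p = 0.497) and H2-Aa by 0.42 (adjusted p = 0.649), all higher in replicates 3 and 4. H2-Ob differed by -0.089 (SE 0.14, adjusted p = 0.909). In total 0 of 8 members passed in limma and 3 had an unadjusted p under 0.05, against 0.158% of all genes called and 8.32% at an unadjusted p under 0.05. Myeloid markers moved with these sets: C1qa, C1qc, Hmox1, Slc40a1 and Vcam1, 5 of the 14 tested, were higher in replicates 3 and 4 at a limma adjusted p from 0.00169 to 0.0294. Their part in the class II values was not tested. The sets differ in the sex pattern, and the labels do not mention a day or batch.

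The effect of genotype was not shown to differ between these sets for any member. The interaction was 0.67 for H2-Aa (limma adjusted p = 0.524), 0.55 for H2-Ab1 (adjusted p = 0.530) and -0.29 for H2-Ob (SE 0.27, adjusted p = 0.645). Of all genes 0 passed this test in limma, and 1304 had an unadjusted p under 0.05, none of them a member.

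Other genes of antigen presentation were taken from 5 lists of 67 genes, of which 58 were tested. In limma 1 was called higher and 0 lower, a share close to the 1.96% of all genes called. An unadjusted p under 0.05 in limma was found for 13 of the 58, a larger share than the 13% (1488) of all 11413 genes. Groups did not overlap for 14 of the 58, also a larger share than the 8.82% (1007) of all genes. Both counts include Marchf1, described below, and the lists were chosen with earlier results known. Among 8 tested genes for invariant chain cleavage and antigen processing, Ctsl, the cathepsin that cuts the invariant chain in thymic epithelium, rose by 0.81 (SE 0.16, adjusted p = 0.0284). It read 6.25, 5.93, 6.09 and 5.85 in WT and 6.96, 7.28, 6.56 and 6.56 in RaptorKO, without overlap. Leaving out RaptorKO 1 or any of WT 2, WT 3 and WT 4 ended the call, with 0.75 (adjusted p = 0.0980) in the last case. The size of the Ctsl difference also depended on the probe set rule, and it fell to 0.53 with probe sets averaged (limma adjusted p = 0.0199). On the brightest Ctsl probe set, replicates 1 and 2 gave 1.03, while replicates 3 and 4 gave 0.59. Ctss, the cathepsin that does this work in B cells and dendritic cells, differed by -0.13 (adjusted p = 0.647), and the median of the list was 0.017.

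In the list of class II turnover and trafficking 0 of 8 genes were called. Marchf1, the ubiquitin ligase that sends class II to degradation, differed by 0.69, from 3.98, 4.86, 4.56 and 4.56 in WT to 5.13, 5.35, 5.08 and 5.15 in RaptorKO. It exceeded the filter on 1 WT array and on the 4 RaptorKO arrays, so it was tested only through the group where it is high, and its difference is a description. Cd83, a membrane protein known to oppose that ligase, differed by 0.37 (SE 0.10, adjusted p = 0.0802), from 7.60 to 7.73 in WT to 7.91 to 8.17 in RaptorKO. Cd83 had groups that did not overlap and passed in 2 alternative settings, with its lowest adjusted p = 0.0277 after quantile normalization.

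Among 19 tested regulators of class II transcription 0 were called, with a median of 0.035. Jak1, a kinase of the interferon-γ receptor that induces Ciita, differed by -0.41 (SE 0.10, adjusted p = 0.0585), and the transcription factor Irf4 by -0.39 (adjusted p = 0.133). Jak1 passed in 5 alternative settings, with its lowest adjusted p = 0.00593 under an intensity trend. Irf4 passed in 2, at -0.49 with probe sets averaged (adjusted p = 0.0241) and -0.59 with every probe set tested (adjusted p = 0.0310). Rfx5, which binds the X box with Rfxap and Rfxank, differed by -0.30 (adjusted p = 0.345), and its partners by 0.11 and 0.067. The Y box factors Nfya, Nfyb and Nfyc differed by 0.12, 0.050 and -0.18.

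Class I presentation, which shows peptides from inside the cell to CD8 T cells, had 0 of 14 genes called and 13 with a negative difference. The median was -0.075. Over all 11413 genes tested 5978 were negative, with a median of -0.0092. The peptide loading factors Calr and Tapbp had the smallest p, with -0.30 (adjusted p = 0.189) and -0.26 (adjusted p = 0.198). In the list of CD4, its ligand partners and the CD28 family 0 of 9 genes were called. Cd28 differed by -0.29 (adjusted p = 0.156) and Ctla4 by -0.32 (adjusted p = 0.169), and the median was -0.033. Levels of T cell markers had a median difference of -0.17 over 8 genes.

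**Figure D4:**
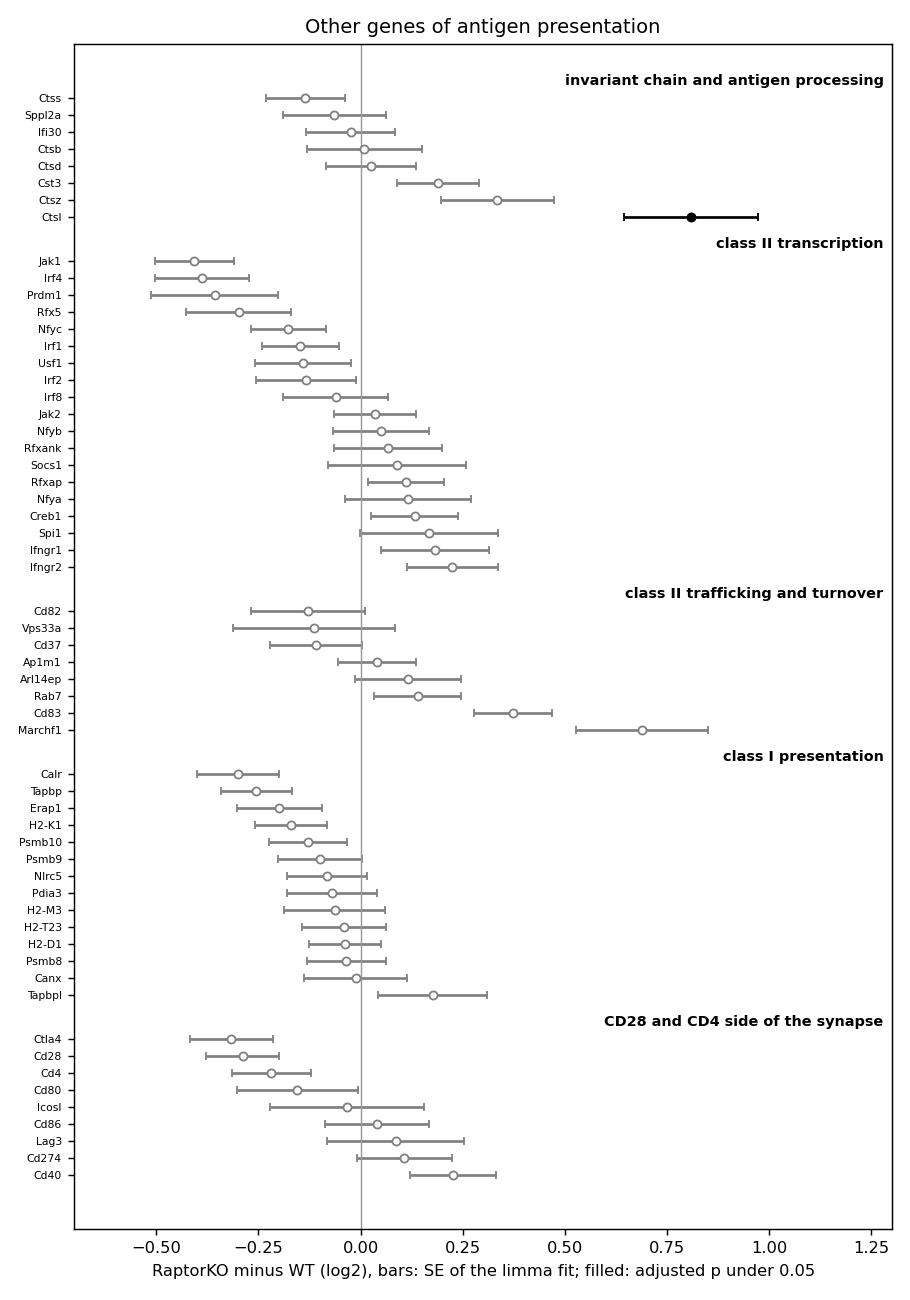
Difference between RaptorKO and WT (log2) of the 58 tested genes of antigen presentation outside the 9 members, grouped by list, with the SE of the limma fit as bars. The filled point is Ctsl (0.81), the called gene, and Marchf1 (0.69) is the next largest in size.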

How the data were processed

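The deposited values are log2 intensities per probe set from 8 single-channel arrays, made by the authors with RMA per the submitters' processing notes; its version, and a genome build, are not given in the sources used here. RMA equalizes arrays, whose medians lay between 5.21 and 5.29, and precision is limited by their number. Titles gave the group and replicate number. Since no label says that replicates are different mice, a p-value reflects only how these samples vary, which can include technical variation.

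Probe sets were named from the platform annotation, updated through Entrez identifiers and RefSeq (GRCm38.p6); 551 probe sets with several genes were not named. A gene was its probe set with the highest mean, and genes above the 40th percentile of their array on at least 4 arrays were tested (11413). RaptorKO was compared with WT in limma 3.58.1 (R 4.3.3; lmFit, eBayes, no covariates), with Benjamini-Hochberg adjustment over all genes; SE is that of the fit. Correlations used exact permutation tests, and for deviations the permutations ran over all arrays, which makes those p-values approximate. The code was tested on simulated data. The members and lists were chosen with earlier results of these data known. The text names all members, called list genes or otherwise those with the smallest p, the first detected markers and the 5 genes most like H2-Ob and H2-Aa; list symbols were also matched through RefSeq synonyms. H2-DMb2, Ctss, the RFX and NF-Y subunits and the markers that differed between replicate sets were named after their values were seen. Deviations from the genotype means over the tested genes correlated between same-numbered arrays of the 2 genotypes with r from -0.15 to 0.16. The numbers were therefore not taken to pair the arrays. Alternatives were a replicate block, other filters, probe set rules, scalings, variance models, marker covariates, a term for the replicate sets, fits within them, and leaving out each array.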

Additional observations from a re-analysis of the deposited data

Results flagged for a closer look

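WT 1 stood apart from the other WT arrays on 2 probe sets of H2-Ab1. On 1450648_PM_s_at it read 6.68 against 7.49 to 7.64, a gap of 0.842 of the group's range, and on 1451721_PM_a_at 5.60 against 6.10 to 6.19, a gap of 0.846 (both above Dixon's critical value). In all 36 groups of 4 were examined, and chance marks about 5% of groups. The same array had the lowest mean of myeloid markers (5.41) and of B cell markers (5.41), and the part of either in the H2-Ab1 values was not tested.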

How the results depend on the processing

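The difference of H2-Ob was negative in all 24 alternative settings, from -1.15 within replicates 3 and 4 to -0.80 when its probe sets were averaged, and from -1.07 to -0.86 when single arrays were left out. It stayed at the main value of -1.01 with block or set terms, other filters, every probe set tested, an intensity trend or robust variance. The sign could not change there, for H2-Ob or the other members, and the set was chosen on the sign of H2-Ob. The differences of H2-Aa, H2-Ab1 and Cd74 were positive in all 24. That of H2-Eb1 was positive in 23 and -0.13 with the myeloid mean as a covariate. H2-DMa, H2-Oa and Ciita took both signs. The count of called genes, 224 in all, was 370 with an intensity trend, 9 within replicates 1 and 2, 85 within replicates 3 and 4, and 101 to 257 without single arrays (leaving out WT 1 gave 125, WT 3 122, WT 4 101, RaptorKO 1 136 and RaptorKO 3 147). With a replicate block it was 175, of which 150 were shared. Labels alone do not pair the arrays. In deviations from genotype means, 0 of 4 WT and 2 of 4 RaptorKO arrays correlated best with their number in the other genotype.

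Called genes of the presentation lists, 1 in all, numbered 2 with the replicate block, with every probe set tested, with the 60th percentile filter, with quantile normalization, with centring on the 75th percentile and with robust variance. They numbered 4 with the mean of probe sets, 6 with an intensity trend and 3 with array weights. They numbered 0 within replicates 1 and 2, 0 within replicates 3 and 4, and 0 to 1 without single arrays. Marchf1 is counted with the replicate block, an intensity trend, robust variance and array weights, and it was the call without WT 2. Since it was tested only through the group where it is high, nothing is read from its calls. Calls between replicate sets, 18 in all, numbered 28 with an intensity trend, 38 with array weights and 9 to 17 without single arrays. The cause of these shifts was not tested; fits on fewer arrays have fewer degrees of freedom. H2-DMb1 was too dim for a statement on its level.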
